A study of Mus musculus with 3 samples.

Results

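The 8 genes described here carry the transforming growth factor beta (TGF-β) signal from ligand to nucleus: the ligand gene Tgfb1, the receptor genes Tgfbr1 and Tgfbr2, the signal transducer Smad3, the inhibitors Smad7 and Skil, and Itgav and Itgb8, whose proteins pair as the αvβ8 integrin that releases the ligand from its latent form. They were chosen by name from the 32285 gene rows of 3 single-cell libraries. TGF-β is secreted as an inactive complex, and cells that display αvβ8 free the active cytokine next to their neighbors. The active ligand binds the type II receptor (Tgfbr2), which recruits and activates the type I receptor (Tgfbr1), and this receptor phosphorylates Smad2 and Smad3. In lymphocytes the pathway restrains effector activation, helps to form and maintain Foxp3+ regulatory T cells, and drives tissue-residency programs such as expression of the integrin gene Itgae.

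The libraries held CD45+ immune cells, sorted from the sciatic nerves of NOD.AireGW/+ mice with neuropathy. One Aire copy of these NOD mice bears the hypomorphic G228W change. Aire drives the display of tissue self-antigens in the thymus, and animals of this genotype come to have immune attack on their nerves. Libraries 1 and 2 each held cells of 1 mouse, and library 3 held cells pooled from 2 mice. All 3 formed a single group with no comparison condition, so cell classes were compared within libraries, and nothing here bears on disease against health. The mice were female per the study's methods, and the labels gave no age.

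The libraries held 3926, 8311 and 1533 cell barcodes with 22983991, 55120460 and 3399733 unique molecular identifiers (UMIs, each a counted RNA molecule), and 3848, 8256 and 1533 cells passed the study's stated filters. Ptprc, the CD45 gene used for the sort, had a UMI in 91.3%, 69.3% and 49.6% of the kept cells. Pairs of libraries shared 36, 7 and 14 barcode sequences. Marker genes then placed 8491 of 13637 cells (62.3%) in 1 of 9 classes, and the class markers stood above their median in the other classes in 115 of 116 checks. Macrophages numbered 6, 1848 and 3 in libraries 1, 2 and 3, so each macrophage value below rests on the single mouse of library 2.

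Library 1 stood apart from the others. In 910 of its 3848 cells under 10% of UMIs came from ribosomal protein genes, against 244 of 8256 and 13 of 1533 cells in libraries 2 and 3, and those 910 cells had a median of 1030 UMIs against 4776 in the rest of the library. Their median mitochondrial share was 6.85% against 1.39%, and Malat1, a nuclear noncoding RNA, stood at 12676 against 3712 UMIs per 1000000 UMIs (CPM). Among conventional CD4 T cells of library 1, the 144 cells of this kind held 601 CPM of Itgb8 and 665 CPM of Itgav, against 31.6 and 90.3 CPM in the other 443 cells. The other 6 members also stood higher there, with Tgfb1 at 531 against 271 CPM and Tgfbr1 at 120 against 23.1 CPM. Among CD8 T cells of library 1 Tgfb1 stood at 714 against 228 CPM and Smad7 at 515 against 167 CPM in the same division. Among Ly49 T cells Itgb8 had no UMI in the 61 cells of this kind and 5.05 CPM in the other 239. Every member difference reported below as past the threshold stayed past it without these cells. Their part in the levels of library 1 is given where it moves a call.

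UMIs were summed over the cells of each class and library, and each class level below is in CPM scaled between sums by the TMM method (trimmed mean of M values). Differences were tested with edgeR's quasi-likelihood test in a model that blocked on library, p-values were adjusted over all genes tested (Benjamini-Hochberg), and an adjusted p under 0.05 was called. Mice are few, and these p-values rest on 3 libraries. They measure the spread left among the sums once differences between libraries are removed. Cell classes were fitted together, so classes outside a comparison also entered the spread used for it. Macrophages, summed in library 2 only, had no spread between libraries of their own. A difference is given as log2 with its standard error (SE), and levels of different genes are not compared because CPM does not correct for transcript length. RNA carried between droplets can enter every class. C1qa, a macrophage gene, had a UMI in 97.1% of library 2 macrophages and 3.77% of its conventional CD4 T cells after each cell was thinned to 1000 UMIs. The gates bounded both shares: macrophages needed at least 5 UMIs of the C1q genes, and T cells had to hold under 0.1%. These shares therefore do not measure how much RNA was carried over.

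**Figure D1:**
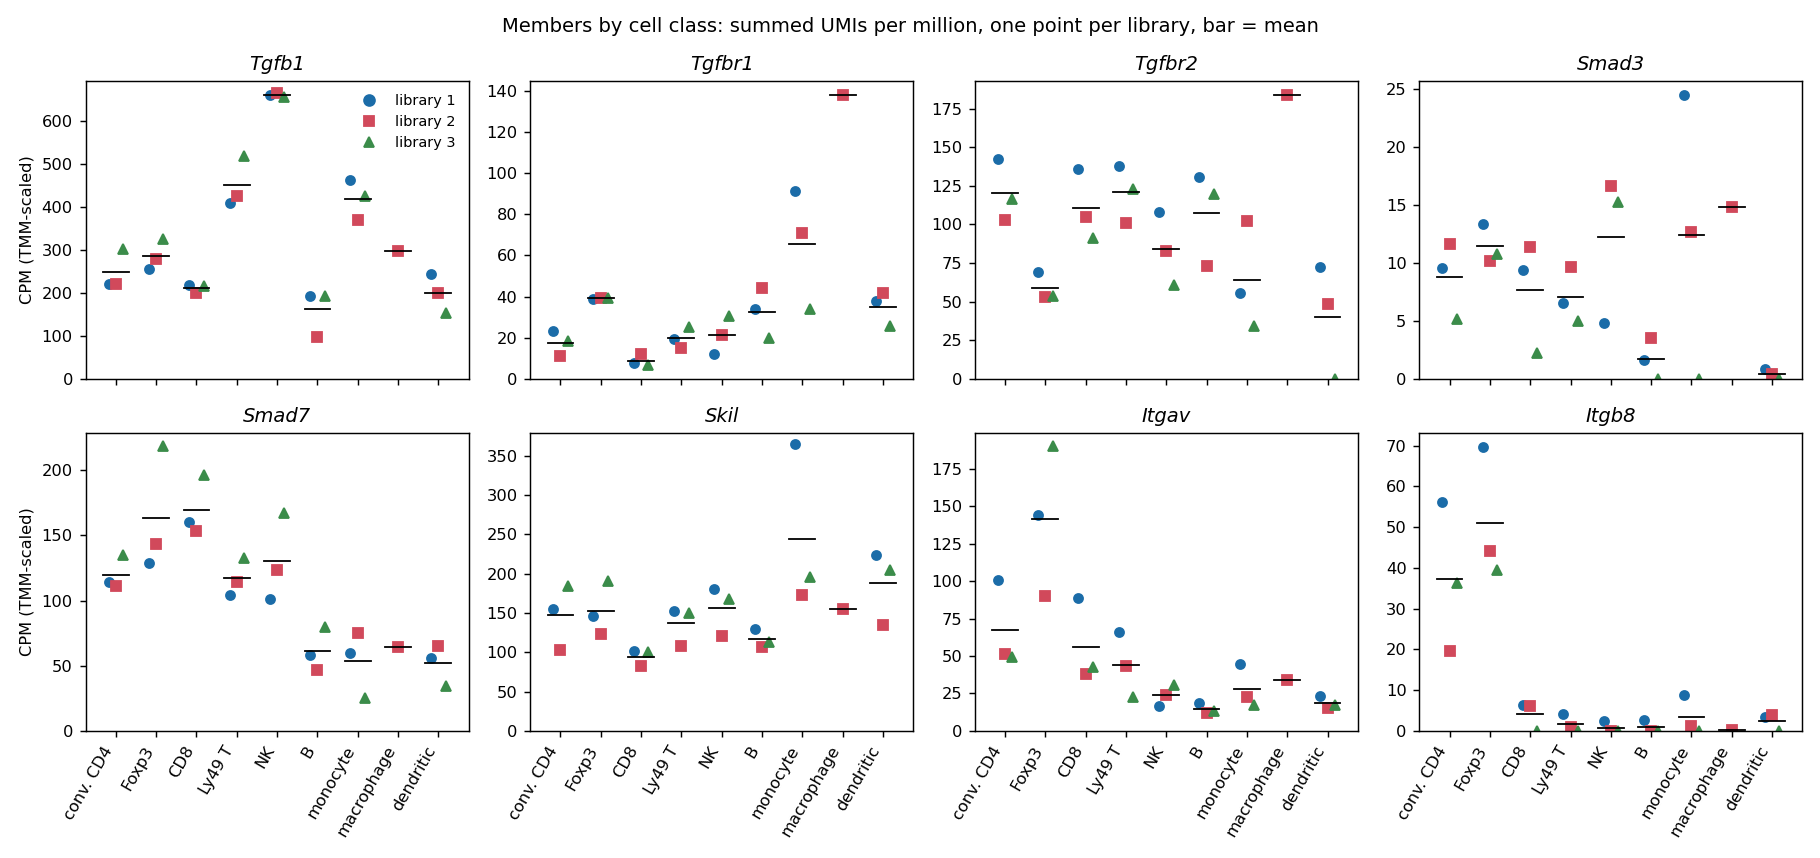
Level of each of the 8 members by cell class, in TMM-scaled CPM, with 1 point per library and the mean over libraries. NK cells hold the highest Tgfb1 points (655 to 665 CPM), and Itgb8 lies between 19.5 and 69.6 CPM in Foxp3 and conventional CD4 T cells and at or under 8.90 CPM in every other class.

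Natural killer (NK) cells held the most Tgfb1 transcript of any class. The ligand gene (chr7:25687002-25705077, plus strand, GRCm38) stood at 662, 665 and 655 CPM in NK cells of libraries 1, 2 and 3, and at 219, 200 and 216 CPM in CD8 T cells. The groups did not overlap, and all 3 libraries had the NK value on top. The difference was +1.65 ± 0.19 (log2, SE; 3.15-fold, adjusted p = 4.50e-07, edgeR). Ly49 T cells, which are T cells with Klra-family receptors otherwise typical of NK cells, were next at 409, 425 and 519 CPM, +1.07 ± 0.18 above CD8 T cells (2.11-fold, adjusted p = 0.000191, edgeR, 3 of 3 libraries).

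The same order was seen cell by cell. After thinning to 1000 UMIs, at least 1 Tgfb1 UMI was found in 50.2% ± 1.46 of NK cells (SD, n = 3 libraries), in 31.2% ± 2.81 of Ly49 T cells and in 17.1% ± 3.79 of CD8 T cells. Before thinning the shares were 84.8%, 74.7% and 43.6%, with median depths of 3087 to 6121.5 UMIs in NK cells and 2207 to 4098.5 UMIs in CD8 T cells. Library 3 had only 16 NK cells, 8 of them with a Tgfb1 UMI (exact 95% interval, 24.7% to 75.3%, counting error only).

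Monocytes were the myeloid class with the highest Tgfb1 values, at 463, 370 and 426 CPM, overlapping Ly49 T cells. Dendritic cells had 243, 200 and 153 CPM, below the monocytes of every library, and the macrophages of library 2 had 298 CPM. Dendritic cells lay −0.81 ± 0.19 below the mean of macrophages and monocytes (adjusted p = 0.00179, edgeR, 3 of 3 libraries). Foxp3 T cells (257, 278 and 326 CPM) and conventional CD4 T cells (221, 221 and 303 CPM) overlapped, and their difference of +0.22 did not pass (adjusted p = 0.730, edgeR).

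B cells had the lowest mean Tgfb1 level, with 193, 98.0 and 193 CPM, −0.67 ± 0.17 below the mean of CD4, CD8 and Foxp3 T cells (adjusted p = 0.00223, edgeR, 3 of 3 libraries). That call rested on library 2, without which the difference was −0.27 (adjusted p = 0.304), and it was also lost without the 5% deepest cells (−0.32, adjusted p = 0.179). Myeloid cells stood +0.33 ± 0.12 above T cells (adjusted p = 0.0244, edgeR) in 2 of 3 libraries, and this small difference was lost without library 1 (adjusted p = 0.107).

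The receptor genes divided Foxp3 T cells from conventional CD4 T cells in opposite directions: the type I receptor was higher and the type II receptor lower. Tgfbr1 (chr4:47353222-47414931, plus strand) stood at 38.6, 39.4 and 39.5 CPM in Foxp3 T cells and at 23.1, 11.3 and 18.1 CPM in conventional CD4 T cells, with no overlap. The difference was +1.20 ± 0.27 (2.29-fold, adjusted p = 0.00841, edgeR, 3 of 3 libraries). Tgfbr2 (chr9:116084293-116175360, minus strand) stood at 69.1, 53.1 and 53.8 CPM in Foxp3 T cells and 143, 103 and 117 CPM in conventional CD4 T cells, again with no overlap. It was lower by −1.03 ± 0.25 (2.04-fold, adjusted p = 0.0186, edgeR, 3 of 3 libraries). Each call needed the libraries in part: Tgfbr1 had an adjusted p of 0.273 without library 2 (+0.79) and 0.0580 without library 3 (+1.21), and Tgfbr2 0.210 without library 1 (−1.03) and 0.0557 without library 3 (−0.996).

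Itgav, treated with the integrins below, was the third gene called between these classes. The 250 bases of GRCm38.p6 (RefSeq) before the start site of these 3 genes are shown because these 3 were the members called between Foxp3 and conventional CD4 T cells, with Tgfbr1 at the first of its listed starts. Capitals mark the core of the Smad-binding element (CAGAC, or GTCTG on the other strand) and the GC box bound by Sp-family factors (GGGCGG or CCGCCC). Each is written from 5′ to 3′ on the strand of its gene.
Tgfbr1, chr4:47352972-47353221, plus strand: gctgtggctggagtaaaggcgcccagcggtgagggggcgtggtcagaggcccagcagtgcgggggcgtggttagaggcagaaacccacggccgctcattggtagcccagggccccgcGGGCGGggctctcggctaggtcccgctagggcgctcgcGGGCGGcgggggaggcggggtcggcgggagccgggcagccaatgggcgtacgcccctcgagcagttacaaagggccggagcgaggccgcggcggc
Tgfbr2, chr9:116175364-116175613, minus strand: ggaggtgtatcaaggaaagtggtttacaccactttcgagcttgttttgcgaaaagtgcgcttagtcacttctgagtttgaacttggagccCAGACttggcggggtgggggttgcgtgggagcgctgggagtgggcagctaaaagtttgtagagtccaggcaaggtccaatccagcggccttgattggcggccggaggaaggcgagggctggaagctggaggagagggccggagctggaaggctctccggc
Itgav, chr2:83724147-83724396, plus strand: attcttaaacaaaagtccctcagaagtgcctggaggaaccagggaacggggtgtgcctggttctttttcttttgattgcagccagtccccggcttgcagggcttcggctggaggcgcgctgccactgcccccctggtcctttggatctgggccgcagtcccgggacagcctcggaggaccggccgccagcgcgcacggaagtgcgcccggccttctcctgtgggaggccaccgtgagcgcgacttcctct

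The Tgfbr1 window held 2 GC boxes and no Smad core, the Tgfbr2 window held 1 Smad core and no GC box, and the Itgav window held neither. A Smad core was present in 42.2% and a GC box in 32.7% of all 32851 windows of this length, so either match is common. No window held a forkhead core (GTAAACA or TGTTTAC, in 3.17% of all windows) or an AP-1 site (TGACTCA or TGAGTCA, in 4.46%). A match of letters describes the sequence and is not a measured binding site. The table held windows for 6 of the 8 members.

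Outside the T cell lineage, Tgfbr1 had its highest means in macrophages and monocytes. It reached 138 CPM in macrophages of library 2 and 91.2, 70.9 and 34.1 CPM in monocytes, and had its lowest mean in CD8 T cells at 7.58, 12.2 and 6.69 CPM. Myeloid cells stood +1.99 ± 0.17 above T cells (3.96-fold, adjusted p = 2.59e-11, edgeR, 3 of 3 libraries). B cells, with 33.8, 44.3 and 19.9 CPM, stood +1.01 ± 0.22 above the mean of T cells (adjusted p = 0.000507, edgeR, 3 of 3 libraries). That mean includes the low CD8 values, and Foxp3 T cells (38.6, 39.4 and 39.5 CPM) lay above B cells in libraries 1 and 3. NK cells, with 12.0, 21.4 and 30.5 CPM, overlapped B cells.

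Dendritic cells had 37.7, 41.7 and 25.6 CPM of Tgfbr1, below the monocytes of their own library in each case. The library 3 order rests on 3 dendritic and 4 monocyte UMIs and carries little weight. Dendritic cells lay −1.37 ± 0.24 below the mean of macrophages and monocytes (adjusted p = 5.42e-05, edgeR). Ly49 T cells had 19.6, 15.0 and 25.1 CPM, above the CD8 T cells of each library by +0.94 ± 0.30, which missed the threshold (adjusted p = 0.0560, edgeR) and passed it without the cells under 10% ribosomal UMIs (+1.04, adjusted p = 0.0283).

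Tgfbr2 was spread more evenly. Conventional CD4 T cells, CD8 T cells (136, 105 and 91.4 CPM), Ly49 T cells (138, 101 and 123 CPM) and B cells (131, 72.9 and 120 CPM) overlapped. Macrophages of library 2 had 184 CPM against 55.6, 103 and 34.1 CPM in monocytes, a difference of +1.39 ± 0.33 (adjusted p = 0.00945, edgeR) that rests on 1 macrophage sum and was lost without library 1 (+1.04, adjusted p = 0.209).

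The dendritic level of Tgfbr2 depended on library 2 as well. Dendritic cells had 72.1, 48.3 and 0 CPM, where 0 of 104441 UMIs in library 3 allows up to 28.7 CPM (3 UMIs). They lay −1.24 ± 0.27 below macrophages and monocytes (adjusted p = 0.000727, edgeR, 2 of 3 libraries). Without library 2, and hence without macrophages, the sign turned (+0.20, adjusted p = 0.828), and with macrophages left out of all libraries it was −0.57 (adjusted p = 0.205).

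Among dendritic cells, plasmacytoid cells had higher receptor levels than conventional type 1 cells in libraries 1 and 2. In library 2 Tgfbr1 stood at 93.7 unscaled CPM in plasmacytoid cells (exact 95% Poisson interval, 70.2 to 123) and 17.6 CPM in conventional type 1 cells (11.01 to 26.6). Tgfbr2 stood at 106 CPM (80.9 to 137) and 26.4 CPM (18.1 to 37.0) in the same cells. Library 1 had the same order for Tgfbr1, 56.2 against 17.4 CPM, and for Tgfbr2, 131 against 7.46 CPM. Migratory mature dendritic cells of library 2 had 30.2 CPM of Tgfbr1 and 17.8 CPM of Tgfbr2. In library 3 all 3 Tgfbr1 UMIs of dendritic cells lay in 1 type 1 cell, and the 6 plasmacytoid cells had 0 of 22435 UMIs, which allows up to 134 CPM. The subsets were too few in cells for a test over libraries, and the intervals cover counting error only.

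Smad3, the receptor-activated transducer, was a scarce transcript that B cells and dendritic cells nearly lacked. The gene (chr9:63646767-63757994, minus strand) stood at 13.3, 10.1 and 10.8 CPM in Foxp3 T cells, 9.54, 11.6 and 5.18 CPM in conventional CD4 T cells and 24.5, 12.7 and 0 CPM in monocytes. These classes overlapped. B cells had 1.66, 3.50 and 0 CPM, below the T cells of each library, a difference of −2.09 ± 0.44 (adjusted p = 0.000301, edgeR).

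Dendritic cells yielded 2 Smad3 UMIs in all, among 3765529 UMIs. The macrophages and monocytes beside them yielded 162 Smad3 UMIs among 15495111, a level 19.7 times as high (exact 95% interval, 5.36 to 164, counting error only). The edgeR test placed dendritic cells lower with an adjusted p of 1.82e-06. Its fitted value of −4.59 ± 0.64 depends on the small count added before taking logs, and 2 of 3 libraries had this direction since library 3 held no Smad3 UMI in monocytes or dendritic cells. The mean over myeloid classes, dendritic cells included, lay −1.06 ± 0.32 below T cells (adjusted p = 0.00601, edgeR, 3 of 3 libraries). This does not describe each myeloid class. Macrophages of library 2 (14.8 CPM) and monocytes (mean 12.4 CPM) stood above the means of Foxp3 (11.4 CPM), conventional CD4 (8.78 CPM) and CD8 T cells (7.67 CPM).

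Smad7, the inhibitory Smad that blocks the type I receptor and is itself induced by TGF-β, was higher in T cells than in B or myeloid cells. It stood at 160, 153 and 196 CPM in CD8 T cells, 129, 144 and 219 CPM in Foxp3 T cells and 114, 111 and 135 CPM in conventional CD4 T cells. B cells (58.1, 46.6 and 79.7 CPM), monocytes (60.1, 74.7 and 25.6 CPM) and dendritic cells (56.2, 65.4 and 34.1 CPM) all lay below every T cell value. The difference from T cells was −1.34 ± 0.18 in B cells (adjusted p = 7.29e-07) and −1.18 ± 0.14 in myeloid cells (adjusted p = 2.21e-08, edgeR, 3 of 3 libraries each). CD8 T cells lay above conventional CD4 T cells in each library, and the difference of +0.49 ± 0.18 did not pass (adjusted p = 0.109, edgeR).

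Skil encodes SnoN, a corepressor that holds Smad target genes silent, and it was high in the myeloid classes and low in CD8 T cells. The gene (chr3:31095058-31122577, plus strand) stood at 365, 173 and 196 CPM in monocytes, 224, 135 and 205 CPM in dendritic cells and 155 CPM in macrophages of library 2. CD8 T cells had 101, 82.1 and 100 CPM, the lowest of all classes in each library. Myeloid cells lay +0.72 ± 0.12 above T cells (1.65-fold, adjusted p = 4.35e-06, edgeR, 3 of 3 libraries).

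Within the lymphocytes, conventional CD4 T cells had 155, 103 and 184 CPM of Skil and NK cells 180, 121 and 168 CPM, above the CD8 value of the same library in all 3. CD8 T cells lay −0.57 ± 0.18 below conventional CD4 T cells (adjusted p = 0.0427) and NK cells +0.71 ± 0.21 above CD8 T cells (adjusted p = 0.0274, edgeR). Both calls were near the threshold. Without library 1 or library 3 they were lost, with adjusted p-values of 0.225 and 0.144 for CD8 against CD4 and of 0.173 and 0.0899 for NK against CD8.

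Of the αvβ8 integrin genes, Itgb8 was concentrated, among the gated classes, in CD4-lineage T cells, and most of its UMIs in gated cells lay there. Itgb8 (chr12:119158022-119238802, minus strand) stood at 69.6, 44.1 and 39.5 CPM in Foxp3 T cells and 56.1, 19.5 and 36.2 CPM in conventional CD4 T cells. CD8 T cells had 6.43, 6.11 and 0 CPM, and no other class exceeded 8.90 CPM in any library. In libraries 1, 2 and 3 Foxp3 and conventional CD4 T cells held 84.2%, 82.5% and 100% of the Itgb8 UMIs of gated cells. Gated cells held 56.0%, 48.9% and 51.0% of the Itgb8 UMIs of all kept cells. The rest lay in cells that no gate assigned, so these shares do not cover them.

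CD8 T cells lay −2.66 ± 0.34 below conventional CD4 T cells for Itgb8 (6.31-fold, adjusted p = 1.79e-06, edgeR, 3 of 3 libraries). B cells (−4.06 ± 0.52, adjusted p = 2.37e-07) and myeloid cells (−3.47 ± 0.34, adjusted p = 7.63e-10, edgeR) lay below T cells in all 3 libraries. The B cell value rests on 5, 0 and 0 UMIs in the 3 libraries, so its fitted size depends on the count added before taking logs. NK cells yielded 1, 0 and 0 UMIs of Itgb8, and the limits that 3 UMIs set there were 8.43, 7.08 and 55.2 CPM.

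Per cell the same split was seen at equal depth. After thinning to 1000 UMIs, Itgb8 was found in 5.49% ± 2.59 of Foxp3 T cells (8.33%, 4.87% and 3.26%), 4.56% ± 2.63 of conventional CD4 T cells (7.46%, 2.34% and 3.87%) and 0.370% ± 0.365 of CD8 T cells. Cells under 1000 UMIs could not enter, among them 91 of 587 conventional CD4 T cells of library 1, of which 89 were under 10% ribosomal UMIs, and 23 of 178 of library 3. In library 2 macrophages, the class with the lowest mean Itgb8 level, the share was 0 of 1817, which allows up to 0.165%. They serve as background because of their low values in these same data, so this 0 is no independent check. Before thinning the shares were 16.6%, 7.999% and 1.47%, with median depths of 1946 to 3398 UMIs in Foxp3 T cells, 1770 to 2923 UMIs in conventional CD4 T cells and 7361.5 UMIs in the macrophages. Without the cells under 10% ribosomal UMIs the thinned shares were 4.17% ± 0.794 in Foxp3 and 3.21% ± 0.779 in conventional CD4 T cells.

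Foxp3 and conventional CD4 T cells overlapped in Itgb8, and the difference of +0.62 ± 0.27 did not pass (adjusted p = 0.298, edgeR, 3 of 3 libraries). It did pass in 2 of 14 alternatives: with only the classes compared, and against conventional CD4 T cells without Il2ra or Ikzf2 UMIs. The latter alternative was chosen after seeing the data. Over all settings the difference ran from +0.24 to +1.76. Conventional CD4 T cells were themselves uneven. Those with a UMI of Il2ra or Ikzf2, genes that regulatory T cells also express, held 145, 29.7 and 97.2 unscaled CPM of Itgb8 in libraries 1, 2 and 3, and those without held 24.0, 14.6 and 14.6 CPM. The first range lay above the second. In library 1, 85 of the 141 Itgb8 UMIs of conventional CD4 T cells came from its cells under 10% ribosomal UMIs. Without such cells the values were 57.8, 29.8 and 97.2 CPM with and 14.1, 14.7 and 14.6 CPM without, in the same order in each library. Activated CD4 T cells and cells of the Foxp3 lineage that yielded no Foxp3 UMI cannot be told apart by these genes.

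**Figure D2:**
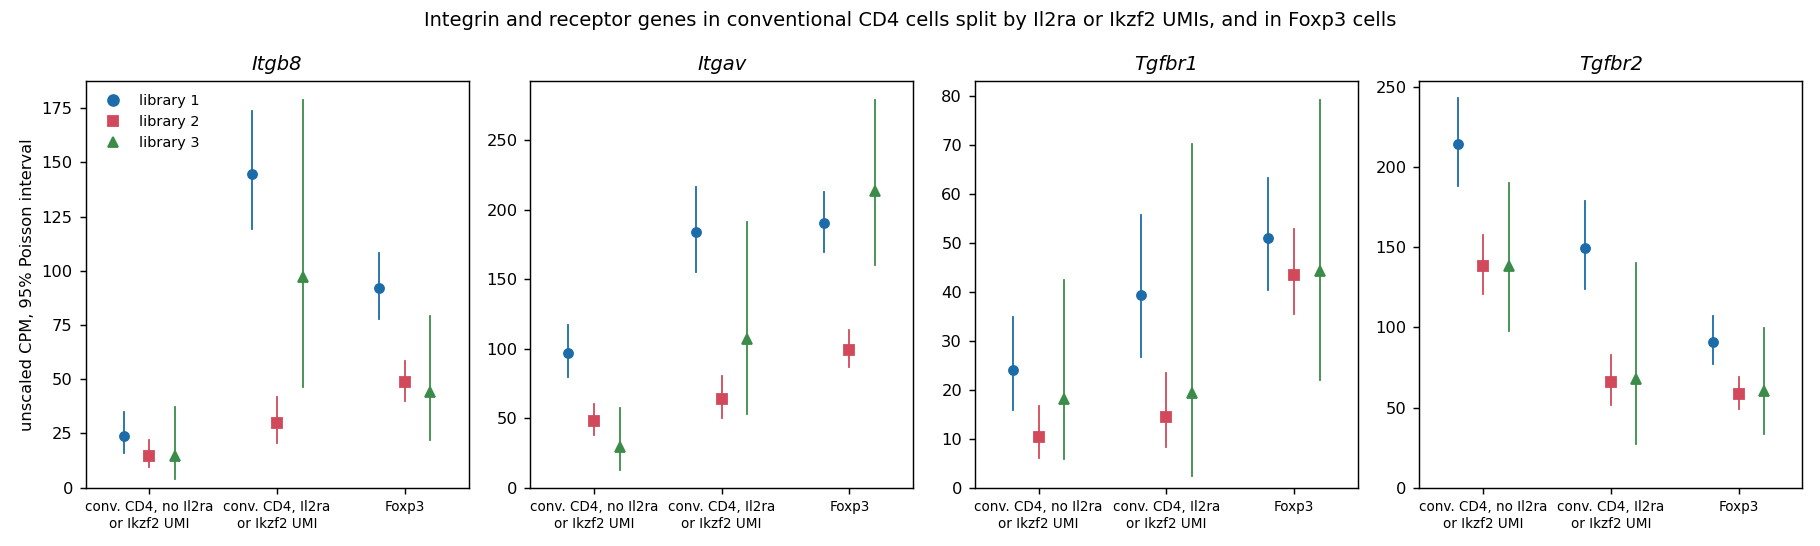
Level of Itgb8, Itgav and Tgfbr2, in unscaled CPM with exact 95% Poisson intervals, in conventional CD4 T cells with and without a UMI of Il2ra or Ikzf2, by library. Itgb8 is 145, 29.7 and 97.2 CPM with and 24.0, 14.6 and 14.6 CPM without; library 1 includes its cells under 10% ribosomal UMIs.

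Itgav, whose αv chain also pairs with other beta chains, was spread more widely. Foxp3 and conventional CD4 T cells held 46.5%, 37.4% and 66.7% of its UMIs in gated cells, which held 61.1%, 58.7% and 63.9% of those in kept cells. CD8 T cells did not pass against conventional CD4 T cells (−0.28 ± 0.22, adjusted p = 0.593, edgeR). The gene (chr2:83724397-83806916, plus strand) stood at 144, 90.1 and 190 CPM in Foxp3 T cells and 101, 51.3 and 49.2 CPM in conventional CD4 T cells. Foxp3 cells were higher in each library, although the ranges overlapped, and the difference was +0.92 ± 0.22 (1.89-fold, adjusted p = 0.0143, edgeR). It was lost without library 2 (+0.98, adjusted p = 0.0846) and without library 3 (+0.66, adjusted p = 0.117).

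The split by Il2ra and Ikzf2 divided Itgav too, with 184, 63.9 and 107 unscaled CPM in the conventional CD4 T cells that had such a UMI and 96.9, 48.2 and 29.1 CPM in those without. Tgfbr2 had the opposite order, 150, 65.7 and 68.0 CPM with and 214, 139 and 138 CPM without. Each library showed both orders.

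NK cells had 16.8, 23.7 and 30.5 CPM of Itgav against 88.6, 37.9 and 42.4 CPM in CD8 T cells, a difference of −1.45 ± 0.39 (adjusted p = 0.0158, edgeR, 3 of 3 libraries). It rested on library 1, without which it was −0.56 (adjusted p = 0.743). B cells (18.8, 12.2 and 13.3 CPM) lay −2.42 ± 0.26 below T cells (5.36-fold, adjusted p = 1.04e-08) and myeloid cells −1.44 ± 0.18 below (adjusted p = 4.41e-08, edgeR), in all 3 libraries. Dendritic cells lay −0.95 ± 0.31 below macrophages and monocytes (adjusted p = 0.0199, edgeR, 2 of 3 libraries), a call lost without library 1 (−0.81, adjusted p = 0.169) or library 2 (−0.82, adjusted p = 0.371).

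Few single cells held both integrin transcripts at this depth. After thinning to 1000 UMIs, 7 of 29 Itgb8-positive Foxp3 T cells of library 1 also had an Itgav UMI (24.1%, against 12.5% of the Itgb8-negative ones), as did 6 of 24 in library 2 (against 10.0%) and 1 of 3 in library 3. In conventional CD4 T cells the numbers were 19 of 37, 2 of 18 and 1 of 6, against 10.7%, 5.46% and 4.03% of the Itgb8-negative ones. Library 1 includes those of its cells under 10% ribosomal UMIs that reached 1000 UMIs, and their part in the 19 was not tested.

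Taken by comparison, members differed most often where lineages were far apart, and so did genes in general. Of the 8 members tested in Foxp3 against conventional CD4 T cells, 2 were higher and 1 lower, where 1.62% of 11443 genes tested were higher and 1.42% lower. In CD8 against conventional CD4 T cells 0 were higher (3.17% of genes; DESeq2 also called 0) and 2 lower (4.4% of genes). An unadjusted p under 0.05 was reached by 4 members in each of these comparisons. The share of all genes at an unadjusted p was not taken, here or in the next paragraphs, so such counts have no background. The percentages given refer to adjusted p only. Because both comparisons use the conventional CD4 sums, their values are not independent.

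NK cells had 2 members higher and 1 lower than CD8 T cells (4.09% and 4.49% of genes), and Ly49 T cells had 1 higher (4.87% of genes) and 0 lower (2.6% of genes), where DESeq2 called 1 lower. These comparisons share the CD8 sums. In the Ly49 comparison 5 members had an unadjusted p under 0.05.

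B cells had 1 member higher and 5 lower than T cells (17.5% and 17.6% of genes), and myeloid cells had 3 higher and 4 lower (26.8% and 30.7% of genes). Both use the same T cell sums. Macrophages had 1 higher than monocytes (3.77% of genes) and 0 lower (2.1% of genes), with 3 members in all at an unadjusted p under 0.05. Dendritic cells had 5 lower than macrophages and monocytes (13.3% of genes) and 0 higher (14.2% of genes), with 5 at an unadjusted p under 0.05. The median log2 difference of all genes was −0.11 for NK against CD8 T cells and +0.21 for macrophages against monocytes, and within 0.1 of 0 elsewhere.

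**Figure D3:**
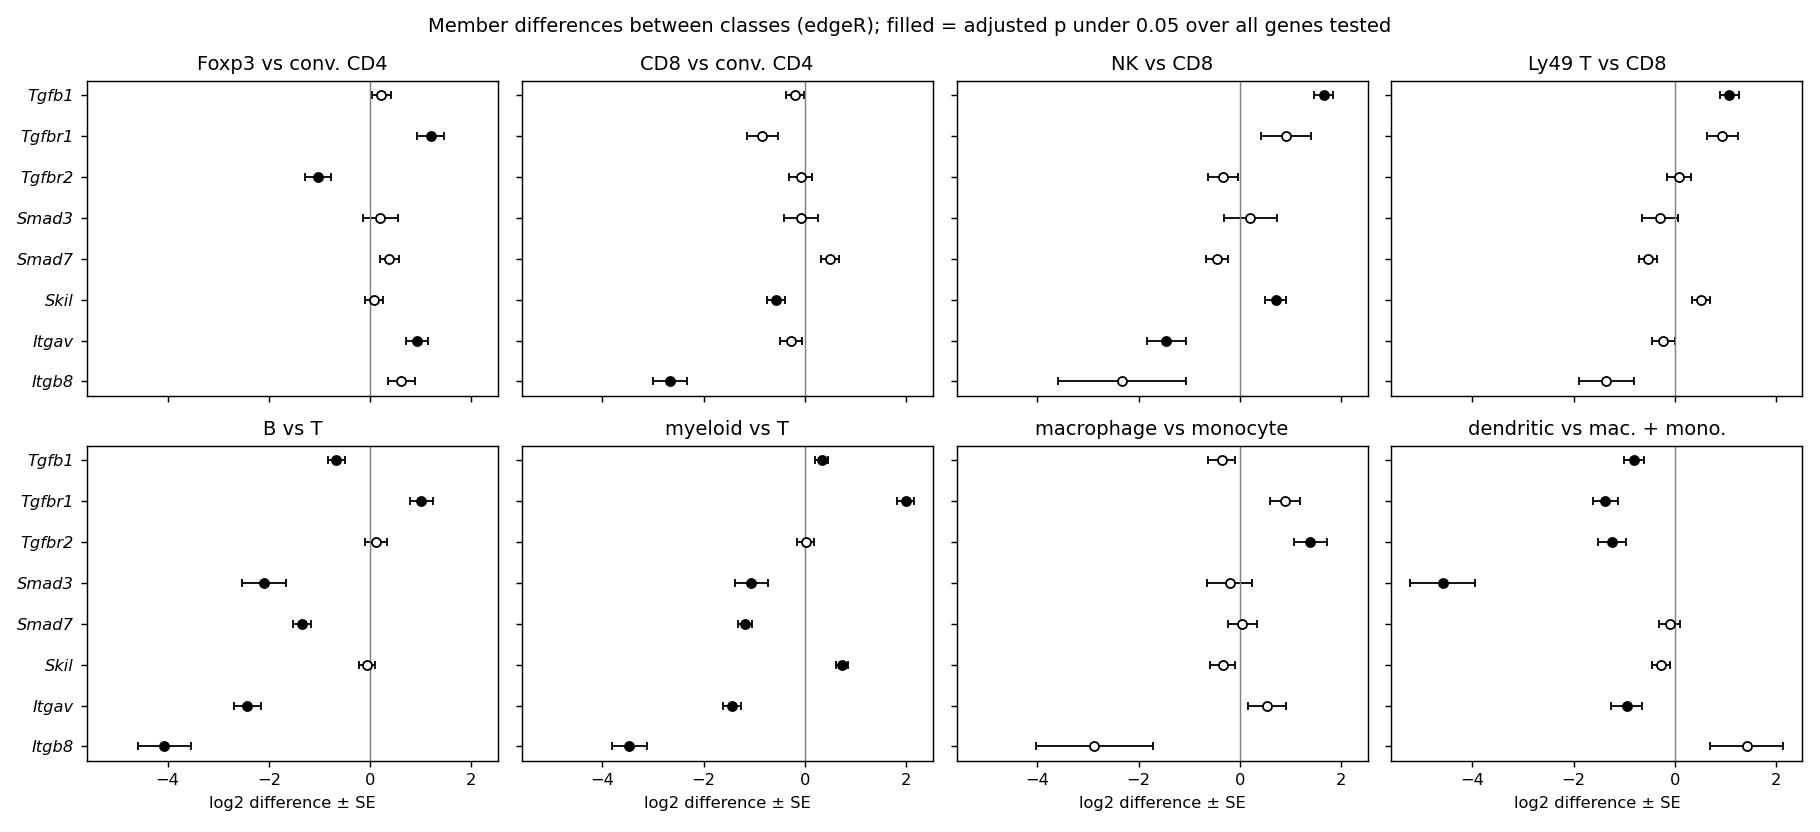
Log2 difference of each member in each of the class comparisons, with standard errors from edgeR; filled points passed an adjusted p of 0.05. Itgb8 and Smad7 lie below 0 in B and myeloid cells against T cells, and Tgfbr1 lies above 0 in both.

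Residency and effector splits within a T cell class moved none of the members tested past the threshold. Conventional CD4 T cells with a Cxcr6 UMI, a chemokine receptor gene of tissue effector cells, numbered 253, 204 and 18 and were compared with 334, 584 and 160 without. Of 7 members tested (all but Smad3), edgeR and DESeq2 called 0 in either direction (1.85% of genes higher, 1.62% lower), and 0 had an unadjusted p under 0.05. The nearest was Smad7 at +0.28 ± 0.15 (adjusted p = 0.423), higher in 3 of 3 libraries.

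CD8 T cells with a UMI of Itgae, the CD103 gene that TGF-β induces in resident T cells, numbered 55 and 61 in libraries 1 and 2, and the 8 in library 3 were too few to enter. Both tools called 0 of 5 members tested (1.04% of genes higher, 0.0863% lower), and 0 had an unadjusted p under 0.05. Tgfbr1, Smad3 and Itgb8 did not pass the filter on low counts, and with no filter edgeR called 0 of 8. Tgfbr1 stood at 24.7 and 18.9 CPM with Itgae in libraries 1 and 2, against 7.21 and 12.5 CPM without. Smad3 was lower with Itgae in both libraries, and Itgb8 was higher in library 1 and lower in library 2. Tgfbr2 was +0.27 ± 0.21 and Skil +0.33 ± 0.23, each higher in 2 of 2 libraries (adjusted p = 0.965 and 0.929, edgeR). A UMI of Cxcr6 or Itgae is found more readily in a deep cell, and the median depths were 3081 against 2758.5 UMIs for Cxcr6 and 3951 against 4102 UMIs for Itgae in library 1.

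The wider pathway was read from a list of 60 genes (ligands and their storage, receptors, integrins, Smads, inhibitors and response genes), of which 48 passed the filter on low counts. Foxp3 T cells had 5 of the 48 higher and 3 lower than conventional CD4 T cells (1.62% and 1.42% of all genes). Lrrc32, whose protein GARP tethers latent TGF-β to the surface of regulatory T cells, was +2.56 ± 0.44 and Itgae +2.44 ± 0.26. Tgfbr3, the betaglycan coreceptor, was −2.80 ± 0.31 and Itgb1 −1.54 ± 0.21 (adjusted p from 4.76e-07 to 0.000747, edgeR). The median over the 48 was +0.01, against +0.01 over all genes.

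CD8 T cells had 1 list gene higher, Runx3 (+1.11 ± 0.20), a transcription factor of the CD8 lineage, and 10 lower than conventional CD4 T cells, among them the BMP receptor gene Bmpr2 (−2.02 ± 0.29), where 3.17% of all genes were higher and 4.4% lower. The list median was −0.38 against +0.01 over all genes. NK cells had 6 higher and 2 lower than CD8 T cells (4.09% and 4.49% of all genes), with the integrin gene Itgb3 at +2.22 ± 0.54 and the decoy receptor gene Bambi at +2.04 ± 0.62 (list median +0.11). The 2 lower genes were Rgs16, a regulator of G protein signaling, at −2.77 ± 0.33, and Itgav. Ly49 T cells had 4 higher and 0 lower (4.87% and 2.6% of all genes), led by Itgae (+2.82 ± 0.25) and Ldlrad4 (+2.05 ± 0.24), an inhibitor of Smad activation (list median +0.08).

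B cells had 4 higher and 23 lower than T cells (17.5% and 17.6% of all genes), with Nrros, whose protein tethers latent TGF-β on myeloid cells, at +1.92 ± 0.32 (list median −0.95, all genes −0.03). Bmpr2 and Tgfbr3 averaged 0.184 and 0.369 CPM in B cells against 21.2 and 22.1 CPM in T cells, and both were called lower. Myeloid cells had 24 higher and 12 lower, where 26.8% of all genes were higher and 30.7% lower, with the TGF-β-induced matrix gene Tgfbi at +6.73 ± 0.29 and with Rgs16 at −6.84 ± 0.32 (list median +0.27, all genes −0.08). Thbs1, whose protein can activate latent TGF-β, averaged 90.4 CPM in myeloid cells and had no UMI in the T cell sums.

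Macrophages, summed in library 2 only, were set against monocytes fitted over all libraries, so these are not differences within library 2. Pmepa1, a TGF-β-induced inhibitor, was +2.32 ± 0.31 and the coreceptor gene Eng +1.80 ± 0.46. Dendritic cells had 5 higher and 18 lower than macrophages and monocytes (14.2% and 13.3% of all genes), with Itgae at +6.55 ± 0.42 and the integrin gene Itgb5 at −6.47 ± 0.35. Conventional CD4 T cells with Cxcr6 had 4 of 33 list genes higher and 0 lower (1.85% and 1.62% of all genes), with Rgs16 at +0.96 ± 0.14 and Runx3 at +0.67 ± 0.18. In CD8 T cells split by Itgae 1 of 22 was higher, Itgae itself, which the split used, and 0 lower (1.04% and 0.0863% of all genes).

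Transcripts of other nerve cells were also present. The summed level of 4 Schwann cell markers ran from 8.68 to 158 CPM in the 25 class sums, highest in library 2 macrophages, and that of 4 neutrophil markers from 81.2 to 104 CPM in monocytes and at 73.3 CPM in library 2 macrophages. Between 0 and 3 of the 4 Schwann cell markers were at 0 in these sums. Of the neutrophil markers, S100a8 and S100a9 were held under 1% of UMIs by the monocyte gate, which limits the monocyte values. The summed level of 4 endothelial markers was 73.1, 70.8 and 36.8 CPM in NK cells, which had the highest Tgfb1, against 14.1, 9.20 and 4.04 CPM in CD8 T cells. In NK cells it was all Pecam1, which leukocytes also express, and Cdh5, Cldn5 and Flt1 were at 0 in all 3 libraries. The part of the Schwann cell and neutrophil transcripts in the member levels was not tested.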

How the data were processed

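Droplet single-cell libraries of CD45+ sciatic nerve cells were aligned to mm10 by the study with Cell Ranger 5.0.1 (library 1) and 6.1.2 (libraries 2 and 3). The authors deposited whole-number UMI counts per gene and barcode. The deposited table of library 1 came without gene names, and the 32285 names of the others were applied in their order (Spearman correlation of row totals 0.950 and 0.929 with libraries 2 and 3, 0.362 and 0.321 with rows shifted by 1). Strand handling in counting, gene lengths and doublet removal were not given in the sources used here; no doublet caller was run, and cells with over 1 UMI of another lineage's T or B cell markers were left ungated.

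Cells with at least 300 UMIs, at most 5000 genes and at most 20% mitochondrial UMIs were kept, then gated on UMIs of marker genes: Cd3d, Cd3e and Cd3g (at least 2 UMIs) for T cells, with Foxp3, Cd4, Cd8a, Cd8b1 and Klra genes dividing them; B cell markers such as Cd79a and Ms4a1 (at least 3) for B cells; Ncr1 and Tyrobp without Cd3e for NK cells; C1qa, C1qb and C1qc (at least 5 and at least 0.1% of UMIs) for macrophages; Lyz2 with at least 2 of 7 monocyte genes such as Ly6c2 and Plac8 for monocytes, less cells with at least 1% of UMIs from S100a8 and S100a9; and, for dendritic cells, at least 2 genes of a subset list (plasmacytoid, mature or type 1) or Flt3 with Cd209a or 2 of Clec10a, Mgl2 and Sirpa. The genes used for gating were not tested as results. C1qa, Klra1 and, within the neutrophil sum, S100a8 and S100a9 are given as descriptions only. The members and lists were chosen with earlier results of these data known.

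UMIs were summed per library and class (at least 10 cells) and tested with edgeR 4.0.16 in R 4.3.3 (glmQLFit and glmQLFTest, class plus library, TMM, filterByExpr), tested first on simulated data. "T cells" denotes the mean of the CD4, CD8 and Foxp3 sums, and "myeloid cells" that of macrophages, monocytes and dendritic cells. The library serves as the block because all classes of a library come from the same mice. Outside the members, genes were named by rule: per comparison and direction, up to 3 list genes past the threshold with the greatest log2 difference, the same sign in every library and a mean of at least 10 CPM on one side; one such gene is not reported here. Shares were read after thinning each cell to 1000 UMIs, with shallower cells left out. Intervals are exact, at 95%, and cover counting error only; the floor for a count of 0 is 3 UMIs. Alternatives were DESeq2 1.42.0, its size factors, no filter, no block, strict gates, a Foxp3 gate of 2 UMIs, only the classes compared, no 5% deepest cells, each library left out, and 4 chosen after seeing the data: CD4 T cells without Il2ra or Ikzf2 UMIs, no macrophages, no dividing cells, and no cells under 10% ribosomal UMIs.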

Additional observations from a re-analysis of the deposited data

How the results depend on the processing

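The number of members called moved with these settings. Foxp3 against conventional CD4 T cells (3 called) had 0 without the replicate block and 0 to 2 with 1 library left out (0 without library 3, 1 without library 2, 2 without library 1). CD8 against conventional CD4 T cells (2 called) had 1 with no filter, without the block, without dividing cells and without the 5% deepest cells, and 1 to 3 with a library left out. NK against CD8 T cells (3 called) had 1 without the block and 1 with strict gates, and 1 to 3 with a library left out. Ly49 against CD8 T cells (1 called) had 3 with DESeq2 and with only the classes compared, 2 with its size factors, no filter, strict gates, no cells under 10% ribosomal UMIs or no 5% deepest cells, and 1 to 2 with a library left out. Macrophages against monocytes (1 called) had 2 with no filter and with strict gates, 0 without the block, and 0 to 1 with a library left out. Dendritic cells (5 called) had 3 without macrophages and 2 to 5 with a library left out. B and myeloid cells against T cells and both splits moved by at most 1.5 times. Of the single-member differences, 408 values under an alternative kept their direction and call, 37 lost the call, 16 gained it and 1 reversed: Tgfbr2 in dendritic cells, +0.20 without library 2 and −1.58 without library 1. The causes were not tested.

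Thinning set the shares. At 1500 UMIs and with no thinning, Itgb8 was found in 8.34% and 16.6% of Foxp3 T cells, and Tgfb1 in 64.6% and 84.8% of NK cells and 24.9% and 43.6% of CD8 T cells. With no thinning Itgb8 was found in 7.999% of conventional CD4 and 1.47% of CD8 T cells. At 1500 UMIs the Itgb8 counts were 37 of 321, 34 of 437 and 4 of 70 Foxp3 T cells in libraries 1, 2 and 3. They were 18 of 444, 22 of 679 and 3 of 111 in conventional CD4 T cells, a lower share in each library. At 1000 UMIs library 3 had the opposite order (3.26% against 3.87%).

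Over all genes, the number called without the block fell from 347 to 49 (Foxp3 against CD4), 867 to 273 (CD8 against CD4), 982 to 482 (NK), 854 to 303 (Ly49), 4022 to 2607 (B), 671 to 163 (macrophages), 3151 to 1911 (dendritic), 244 to 2 (Cxcr6) and 65 to 1 (Itgae). With no filter the Foxp3 comparison had 604 and the Itgae split 130, and with only the classes compared the Foxp3 comparison had 949 and the CD8 comparison 1438. DESeq2 called 446 for macrophages (202 higher and 244 lower, against 431 and 240), 42 for Cxcr6, 19 for Itgae and, for NK cells, 543 higher and 381 lower against 468 and 514. The Itgae split had 31 with DESeq2's size factors, 3 with strict gates, 35 without cells under 10% ribosomal UMIs, 14 without the 5% deepest cells, and 18 higher and 59 lower against 60 and 5 from thinned cells, and the Cxcr6 split had 124 from thinned cells. With a library left out the lowest numbers were 116 (Foxp3), 315 (CD8), 385 (NK), 332 (Ly49), 2231 (B), 3382 (myeloid, against 6576), 229 (macrophages), 1264 (dendritic) and 0 (Cxcr6, without library 1). The comparison of mature dendritic cells with conventional ones could not be fitted, nor could the Itgae split without library 1 or 2, nor macrophages against monocytes without library 2 or with only those classes. Without library 2, myeloid cells were monocytes and dendritic cells alone. Depth limited Smad3 and, outside CD4-lineage T cells, Itgb8.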

Other observations

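Several groupings within the T cell classes, chosen after their values were seen, are given in unscaled CPM with no test. CD8 T cells with a UMI of Havcr2, an exhaustion marker gene, held 154, 61.3 and 77.8 CPM of Itgav in libraries 1, 2 and 3, against 75.6, 28.3 and 25.7 CPM in those with Gzmk, a gene of early effector cells, and no Havcr2. The first group was higher in each library, with 201, 58 and 6 Itgav UMIs behind its values. Tgfb1 in the same groups stood at 321, 243 and 311 CPM against 236, 176 and 191 CPM. CD8 T cells with Cxcr6 held 277, 219 and 285 CPM of Tgfb1 against 229, 162 and 136 CPM without.

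Foxp3 T cells with an Itgae UMI held 62.9, 53.7 and 58.1 CPM of Tgfbr1 against 36.9, 34.0 and 40.6 CPM without, and 104, 59.9 and 96.9 CPM of Itgb8 against 77.9, 38.1 and 30.5 CPM. Both members were higher with Itgae in each library, and the library 3 values rest on 3 Tgfbr1 UMIs and 5 Itgb8 UMIs. Conventional CD4 T cells with S1pr1, the receptor gene of recirculating cells, held less Itgb8 than those without, at 37.2, 5.20 and 21.7 CPM against 98.8, 26.8 and 42.1 CPM. Tgfbr2 had the opposite order in them, 217, 185 and 130 CPM against 168, 79.8 and 116 CPM.

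B cells of library 2 held 48 of 346 cells under 10% ribosomal UMIs. Their median depth was 24825.5 UMIs against 2790.5 UMIs in the other B cells, the reverse of the medians in library 1 (1192 against 4211 UMIs). Tgfb1 stood at 11.5 CPM against 82.6 CPM, and library 1 had the same order for it, at 39.8 against 210 CPM.

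The genes whose levels most resembled each member were listed over the 25 sums of class and library by Pearson's r of log2(CPM + 1), as a description, since sums of a library share their mice and depth. For Itgb8 they were Sla (0.88), Tnfrsf4 (0.87) and Il10 (0.85), and for Itgav Ccr8 (0.89), Cd5 (0.85) and Cd6 (0.84). For Tgfb1 they were Dhrs3 (0.82), Neurl3 (0.82) and Klra1 (0.79), a gene of the family that gated the Ly49 T cells, and for Tgfbr1 Bnip3 (0.79), Cyfip1 (0.78) and Ctss (0.78). Tgfbr2 was nearest to Retreg2 (0.94), Brox (0.92) and Nfrkb (0.91), Smad7 to Rnf138 (0.94), Pde4d (0.94) and Ankrd11 (0.92), Smad3 to AU020206 (0.84), Arl6ip5 (0.76) and Plec (0.76), and Skil to Nfkbie (0.74), Irf7 (0.74) and Gsdmd (0.73).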
